A study of Sus scrofa with 12 samples.

Results

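A set of 8 genes that mark macrophages and antigen-presenting cells was followed across 12 Affymetrix 3' arrays of porcine aortic valvular interstitial cells, the fibroblast-like cells of the heart valve leaflet. They are SLA-DRA, SLA-DRB1 and SLA-DMA of the pig class II major histocompatibility complex, the lysosomal protease gene CTSS, and the macrophage-associated genes CD163, CD14, C1QC and AIF1. Members were all probe sets on which the only gene symbol is one of these 8 names. That gave 15 of the 23999 probe sets, and 8 of the 6765 genes named alone on a probe set.

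Class II molecules present peptides from endocytosed protein to CD4 T cells. The DR α and β chains form such a molecule at the cell surface. They assemble on the invariant chain CD74, which proteases such as cathepsin S trim to a short remnant, and the DM heterodimer then exchanges that remnant for antigenic peptide. Professional antigen-presenting cells, macrophages among them, carry the pathway constitutively, and other cells can be induced by interferon γ through the coactivator CIITA. CD163 is a scavenger receptor for haemoglobin-haptoglobin, CD14 a co-receptor for lipopolysaccharide, C1QC a chain of complement C1q, and AIF1 an actin-binding protein of macrophages and microglia. Heart valve leaflets are known to hold resident macrophages beside the interstitial cells.

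The arrays form 4 groups of 3 biological replicates. All cells came from valves of adult pigs by collagenase II digestion. P0 cells were collected straight after isolation, with 0 passages and no culture. P2 cells had 2 passages on tissue culture plastic and were then held in medium with 1% serum. They were left untreated, or received porcine TGF-β1, a cytokine that drives fibroblasts to myofibroblasts, at 5 ng/ml for 8 h or for 24 h. Every P2 culture ended after 3 days. The labels name no animals and no sorting step, so the p-values measure the spread between these samples, which may in part be technical. In a bulk array, fewer cells of a type and less RNA per cell cannot be told apart.

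Values are log2 expression as deposited. Their level under no target was read from 64 reporter control probe sets, with a median of 3.07 and a 95th percentile of 4.58, called the control level here. Tests compared group means with limma over 17638 probe sets that exceeded log2 4 on at least 3 arrays, and "passed" means a Benjamini-Hochberg adjusted p under 0.05. Of the 15 member probe sets 12 were tested, at least 1 for each of the 8 genes. The other 3, CD163 Ssc.11991.1.A1_at and SLA-DRB1 Ssc.16211.1.A1_at and Ssc.16211.1.S1_at, stayed under log2 4 on all 12 arrays. Of the tested ones 10 exceeded log2 4 on all 12 arrays, and all 12 would also have been tested on the P2 arrays alone. The labelled cell type was set against 14 fibroblast genes, none of which stayed under the control level on all arrays. The collagen-binding proteoglycan DCN averaged 15.0 in P0, 13.3 in untreated P2 cells, 13.2 at 8 h and 13.1 at 24 h. Vimentin VIM, which many mesenchymal and blood cells also express, averaged 15.6, 15.6, 15.5 and 15.5 in the same order.

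**Figure D1:**
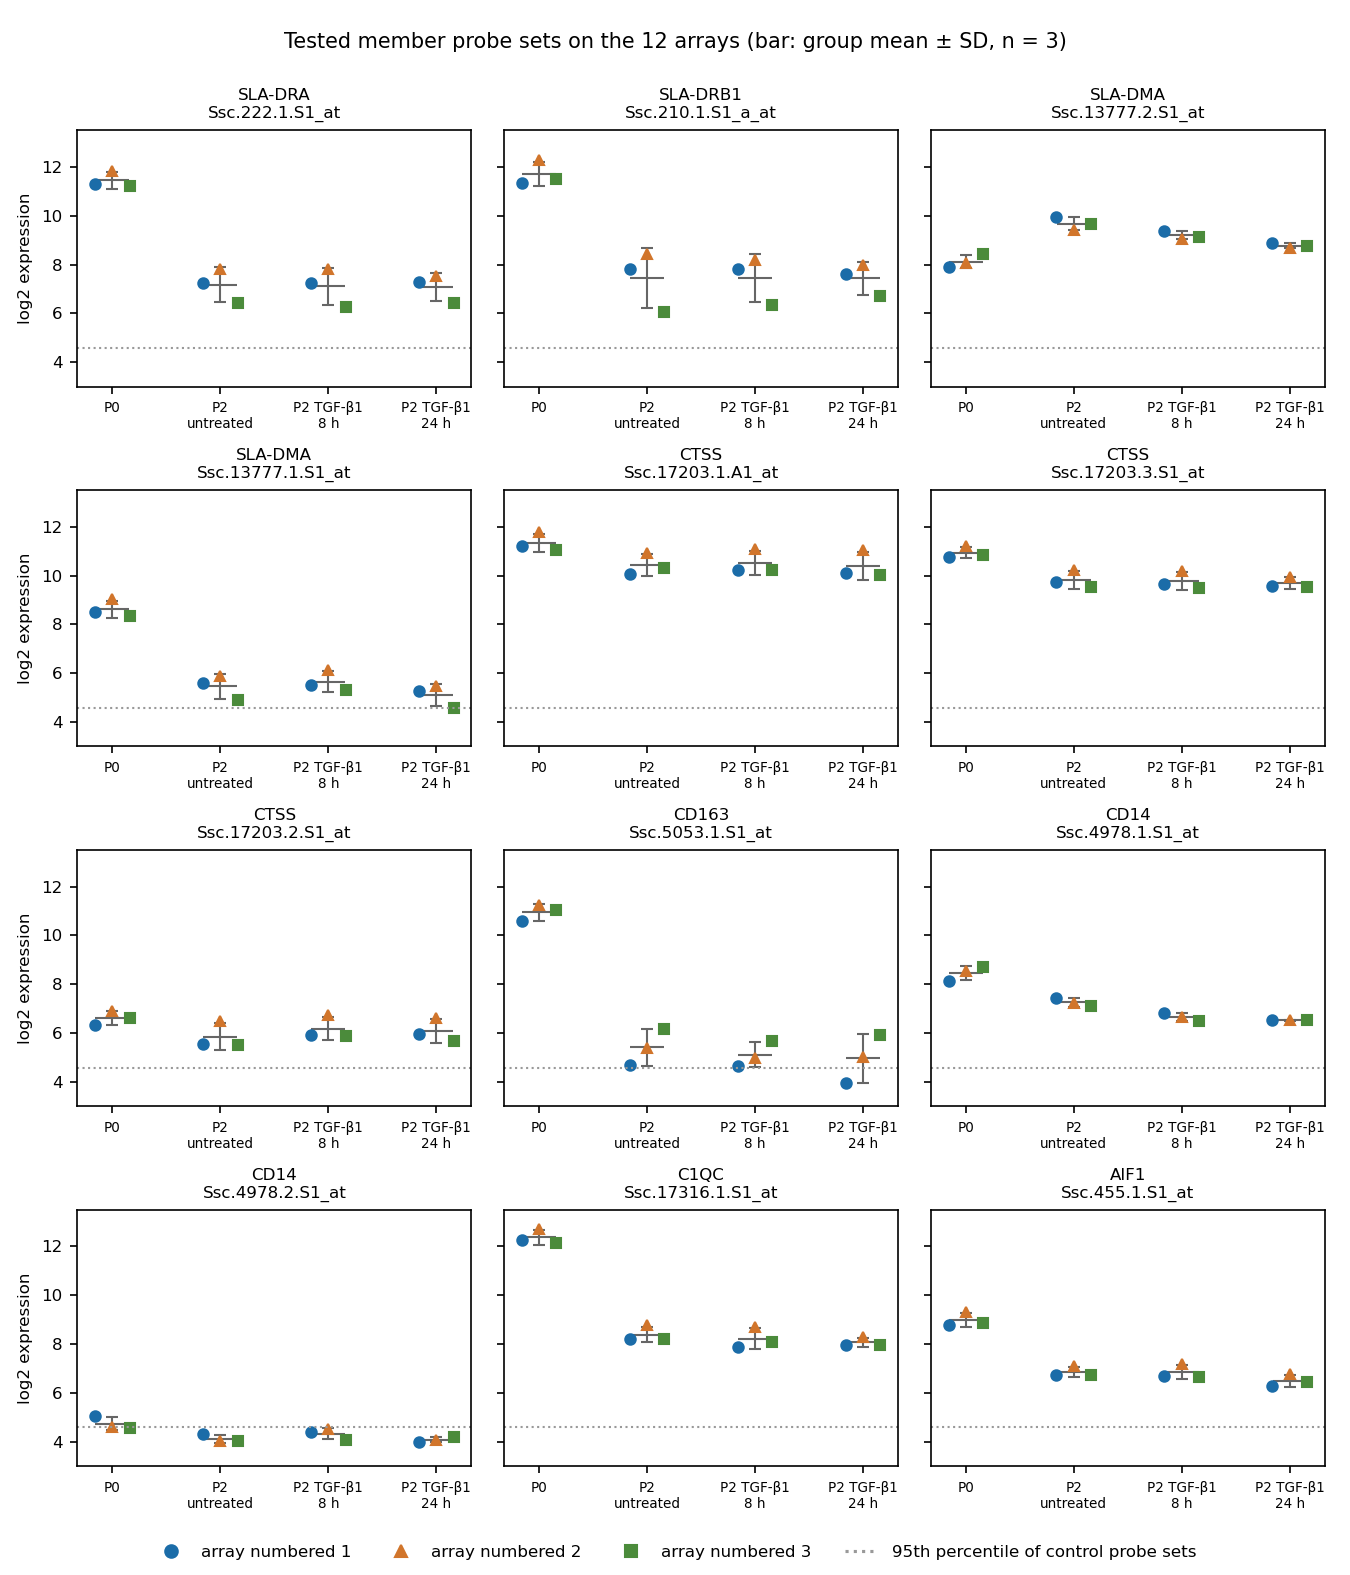
Log2 expression of the 12 tested member probe sets on each of the 12 arrays, with group means ± SD (n = 3) and the control level of 4.58 as a dotted line. In 10 panels the 3 P0 arrays lie above the 3 untreated P2 arrays, in the panel of SLA-DMA Ssc.13777.2.S1_at they lie below, and in that of CTSS Ssc.17203.2.S1_at they overlap.

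Freshly isolated cells carried the class II DR chains, CD163 and C1QC at high levels, and passaged cells held 2.14% to 6.33% of those levels. The first comparison, untreated P2 against P0, sets cells passaged and cultured on plastic against fresh cells. CD163 fell 46.7-fold, SLA-DRA 19.4-fold, SLA-DRB1 19.3-fold and C1QC 15.8-fold. Of the 12 probe sets 11 passed, 10 lower and 1 higher, and in 11 the groups did not overlap. Much of the transcriptome differed between these groups: 59.4% of all tested probe sets passed, 25.8% lower and 33.6% higher. The groups did not overlap at 65.1%, 28.3% lower. The members' median log2 fold change was -1.67, against 0.07 over all tested probe sets. A scan or processing batch between P0 and P2 arrays was not tested, because no such label was given.

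SLA-DRA encodes the DR α chain. On Ssc.222.1.S1_at it read 11.30, 11.84 and 11.22 on the P0 arrays numbered 1, 2 and 3. Untreated P2 arrays read 7.25, 7.84 and 6.42 in the same order. The groups lay more than 3 log2 units apart, and the P2 values, though all above the control level, spread more widely (7.17 ± 0.71 SD, n = 3) than the P0 values (11.45 ± 0.34). The log2 fold change was -4.28 ± 0.428 SE (limma adjusted p = 3.67e-06).

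SLA-DRB1, the DR β chain, read 11.36, 12.29 and 11.50 in P0 and 7.84, 8.43 and 6.07 in untreated P2 cells on Ssc.210.1.S1_a_at. Its change matched that of its α-chain partner in size, -4.27 ± 0.607 (adjusted p = 6.75e-05), with a larger error, as the untreated values spread widely (7.45 ± 1.23 SD, n = 3). DR β genes are near-identical copies of each other, and RefSeq lists a further DR β locus, LOC106504372, so which copy a probe set reads is uncertain. The probe set Ssc.210.7.S1_x_at, which carries both symbols and is no member, averaged 10.40 in P0 and 5.95 in untreated P2 cells.

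SLA-DMA, the α chain of the DM peptide exchanger, gave opposite answers on its 2 probe sets. On Ssc.13777.1.S1_at the P0 arrays read 8.49, 9.02 and 8.35 and the untreated P2 arrays 5.61, 5.91 and 4.90, a log2 fold change of -3.15 ± 0.310 (adjusted p = 3.21e-06). On Ssc.13777.2.S1_at the P0 arrays read 7.89, 8.08 and 8.42 and the untreated P2 arrays 9.97, 9.43 and 9.66, a change of 1.56 ± 0.167 (adjusted p = 6.53e-06). Neither pair of groups overlapped. The files do not say which transcript either probe set reads, so no direction is given for the gene.

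Genes beside SLA-DMA give a reference for the 2 readings. In the RefSeq gene order of the Sscrofa11.1 assembly SLA-DMA lies between SLA-DMB, which encodes its β-chain partner, and SLA-DOA, a chain of the DM inhibitor DO. SLA-DMB read 8.65, 9.52 and 8.70 in P0 and 6.12, 6.49 and 5.79 in untreated P2 cells, a fall of 2.83 on the log2 scale (SE 0.268, adjusted p = 2.34e-06). SLA-DOA fell by 1.32 (SE 0.163, adjusted p = 2.11e-05), from a mean of 6.08 to 4.76. Both neighbours moved as Ssc.13777.1.S1_at did, which does not settle which transcript either SLA-DMA probe set reads.

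**Figure D2:**
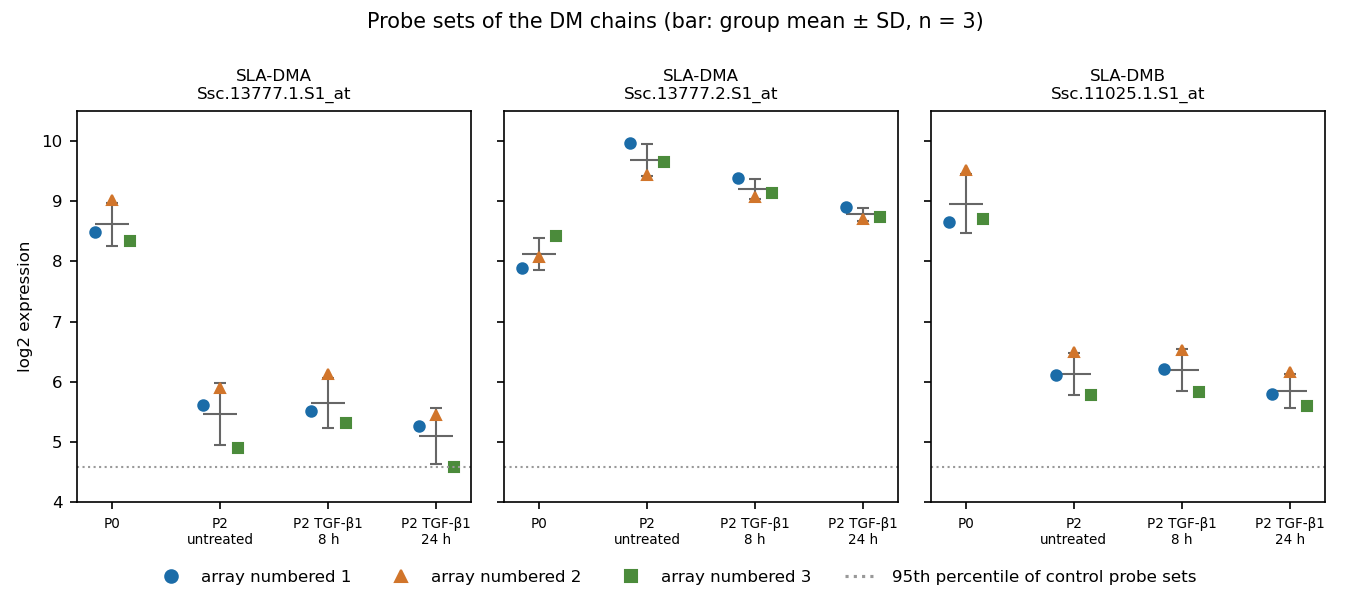
Log2 expression per array of both SLA-DMA probe sets and of SLA-DMB, with group means ± SD (n = 3) and the control level dotted. Ssc.13777.1.S1_at and SLA-DMB drop from P0 to P2 (8.62 to 5.47 and 8.96 to 6.13), whereas Ssc.13777.2.S1_at rises from 8.13 to 9.68 and then declines to 8.78 at 24 h of TGF-β1.

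CTSS, cathepsin S, stayed well expressed in passaged cells. Ssc.17203.3.S1_at read 10.75, 11.21 and 10.86 in P0 and 9.73, 10.24 and 9.53 in untreated P2 cells, a change of -1.11 ± 0.224 (adjusted p = 0.00102). Passaged cells thus kept 46.5% of the P0 level. The other probe sets pointed the same way with less certainty. Ssc.17203.1.A1_at read 11.22, 11.77 and 11.06 in P0 and 10.06, 10.93 and 10.32 in untreated P2 cells. It changed by -0.91 ± 0.331 (adjusted p = 0.0313), and this call was lost without P0 replicate 1 (adjusted p = 0.0516), P0 replicate 2 (0.125), untreated replicate 1 (0.117) or untreated replicate 3 (0.0784). It was also lost without the 3 P2 arrays numbered 3 (adjusted p = 0.0806) and with values raised to the control level (0.0611). Ssc.17203.2.S1_at did not pass (-0.77 ± 0.322, adjusted p = 0.0575), and its untreated P2 values of 5.55, 6.49 and 5.52 overlapped the P0 values of 6.33, 6.91 and 6.61.

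CD163, the haemoglobin scavenger receptor, had the largest fold change of the members. Ssc.5053.1.S1_at read 10.57, 11.25 and 11.04 in P0 and 4.67, 5.38 and 6.17 in untreated P2 cells. The first of the P2 values lies next to the control level and the third clearly above it. The log2 fold change was -5.55 ± 0.478 (adjusted p = 1.06e-06), which leaves 2.14% of the P0 level.

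C1QC, the C chain of C1q, read 12.25, 12.73 and 12.13 in P0 and 8.21, 8.76 and 8.20 in untreated P2 cells, a change of -3.98 ± 0.235 (adjusted p = 5.20e-08). Among the members it had the lowest adjusted p. Its P2 values remained far above the control level. C1QA, which encodes another chain of the same hexamer and neighbours C1QC in the RefSeq order, fell by 3.25 (SE 0.232).

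AIF1 read 8.79, 9.33 and 8.86 in P0 and 6.75, 7.10 and 6.71 in untreated P2 cells, a change of -2.14 ± 0.197 (adjusted p = 1.84e-06). Passaged cells kept 22.7% of the P0 level, against 5.15% for SLA-DRA and 6.33% for C1QC. In the RefSeq order AIF1 shares a chromosome with the 3 SLA members, with 56 protein-coding genes between it and SLA-DRA.

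CD14, the lipopolysaccharide co-receptor, fell less. Ssc.4978.1.S1_at read 8.13, 8.53 and 8.69 in P0 and 7.45, 7.22 and 7.10 in untreated P2 cells, a change of -1.19 ± 0.154 (adjusted p = 2.98e-05). The second probe set, Ssc.4978.2.S1_at, lay near the control level throughout, with a P0 mean of 4.74 and an untreated mean of 4.11. It passed as lower (adjusted p = 0.00461), by at least 1.12-fold, and did not pass once values were raised to the control level (adjusted p = 0.203).

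**Figure D3:**
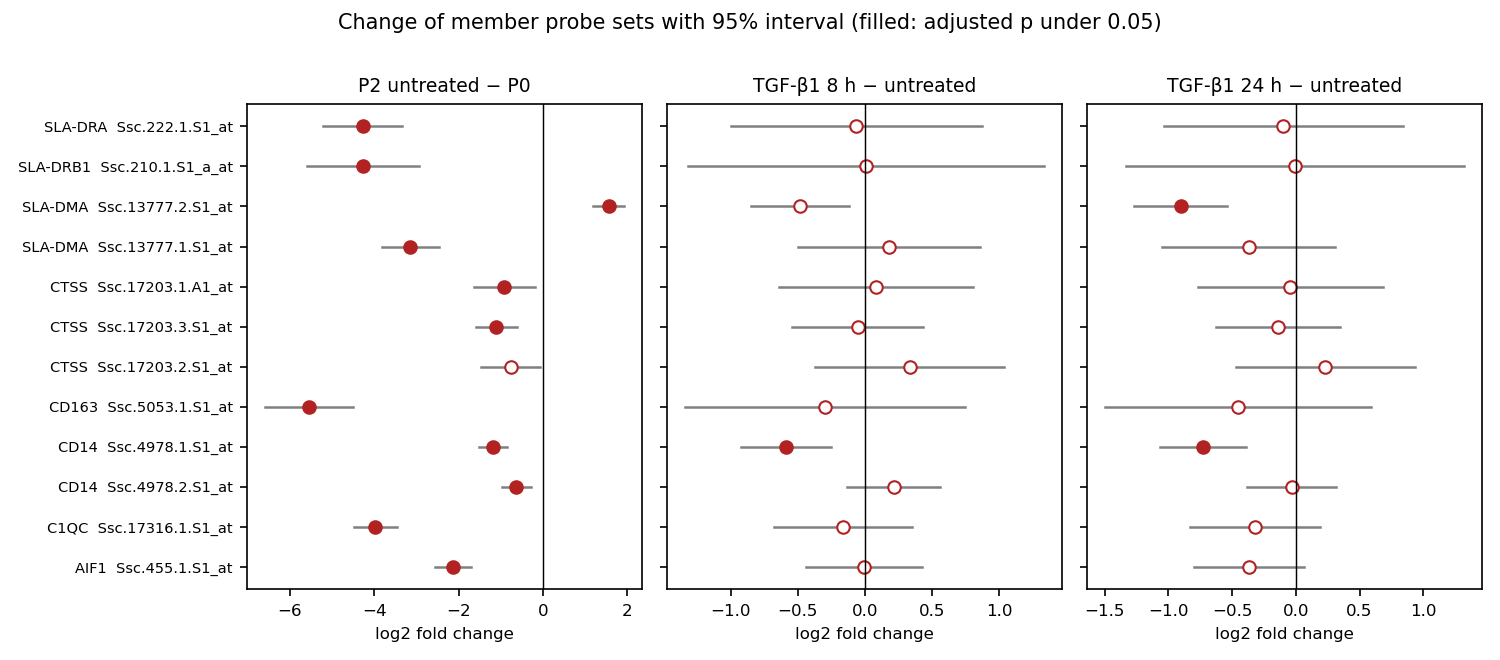
Log2 fold change with its 95% confidence interval (limma, without the replicate block) for the 12 tested member probe sets in 3 comparisons, with filled points where the adjusted p is under 0.05 and a separate horizontal scale in each panel. For untreated P2 against P0 11 probe sets passed, for TGF-β1 1 at 8 h and 2 at 24 h, and the intervals of SLA-DRA and SLA-DRB1 span 0 under TGF-β1.

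The rest of the class II pathway changed in both directions. Of 37 listed genes other than members 17 were on a single-symbol probe set, all 17 tested. Of these 10 fell and 2 rose, with a median of -0.41, against 25.8% lower and 33.6% higher over all tested probe sets. The class II chains SLA-DQA1, by 4.22 (SE 0.397), and SLA-DQB1, by 4.20 (SE 0.436), and the invariant chain CD74, by 4.18 (SE 0.190), fell furthest. SLA-DMB fell by 2.83 and SLA-DOA by 1.32. CD74 averaged 9.29 in P0 and 5.11 in untreated P2 cells.

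Regulators of class II transcription went both ways. CIITA, the coactivator, read near the control level in P0 (mean 4.60) and in untreated P2 cells (4.42) and did not pass (-0.19 ± 0.136, adjusted p = 0.255). The X-box factor subunit RFXANK rose by 1.58 ± 0.180. The Y-box subunits NFYC (-1.47 ± 0.122) and NFYB (-0.81 ± 0.136) fell, and CREB1 did not pass (0.32, adjusted p = 0.0953).

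Lysosomal members of the pathway changed by 1.23 or less. IFI30, a reductase that unfolds antigen in lysosomes, rose by 1.23 ± 0.167. CST3, the cathepsin inhibitor cystatin C, fell by 0.62 (SE 0.109), and the cathepsins CTSZ and CTSB fell by 0.41 and 0.40. CTSD (-0.25, adjusted p = 0.144), CTSH (0.39, adjusted p = 0.0800) and LGMN (0.43, adjusted p = 0.0858) did not pass.

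Of 61 listed macrophage and monocyte markers 35 were on a single-symbol probe set and 31 were tested. Of these 22 fell, 0 rose and 9 did not pass, with a median of -1.29, against 25.8% lower over all tested probe sets. Estimates were above 0 for GPNMB (0.50, adjusted p = 0.178), CYBA (0.13), CCR2 (0.10) and ARHGDIB (0.05), which did not pass. RGS1, a regulator of G-protein signalling in leukocytes, fell at least 21.3-fold and PLEK, pleckstrin, at least 12-fold, both to means under the control level. The complement receptor VSIG4 fell by 4.59 (SE 0.357), the tetraspanin CD53 by 3.68 (SE 0.568) and the signalling adaptor TYROBP by 3.05 (SE 0.319). LAPTM5, a lysosomal protein of leukocytes, did not pass (-1.04, adjusted p = 0.199). In all, 5 of the 35 markers stayed under the control level on all arrays, among them the integrin ITGAM and SIGLEC1. The summed log2 level of the 35 ran from 256.9 to 271.0 on the P0 arrays and from 202.8 to 219.2 on the untreated P2 arrays. CSF1R and CD68 were on no probe set with a single symbol, and PTPRC, the pan-leukocyte antigen CD45, averaged 5.53 in P0 and 4.88 in untreated P2 cells.

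In the list of the interferon γ axis and macrophage factors 7 of 9 tested genes fell and the kinase JAK1 did not pass. Over all tested probe sets 25.8% fell and 33.6% rose. The cytokine IL13 passed as higher (0.48, adjusted p = 0.0333), but its means of 3.94 in P0 and 4.42 in untreated P2 cells both lay under the control level. The transcription factor IRF8 fell at least 40.1-fold, the cytokine IL10 at least 19.8-fold and IRF1 by 5.27 (SE 0.184). The receptor chain IFNGR1 fell by 1.90 and the kinase JAK2 by 1.41, while IFNG itself stayed under the control level on all arrays. In the CD14 receptor complex TLR2 fell by 3.97 and TLR4 by 2.70, 5 of 8 tested genes fell, IRAK1 (0.98) and LY96 (0.53) rose and TRAF6 did not pass.

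Class I genes were read for comparison within antigen presentation. Of 15 tested 6 rose and 2 fell, with a median of 0.15. Over all tested probe sets 33.6% rose and 25.8% fell. CANX, counted as risen (0.35), had 1 other probe set that passed as lower. The proteasome activator subunits PSME2 (1.46 ± 0.175) and PSME1 (1.45 ± 0.139) and the immunoproteasome subunits PSMB8 (1.44 ± 0.303) and PSMB10 (0.85 ± 0.110) rose, and the class I heavy chain SLA-2 fell by 0.72. The light chain B2M averaged 15.5 in P0 and 15.4 in untreated P2 cells.

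**Figure D4:**
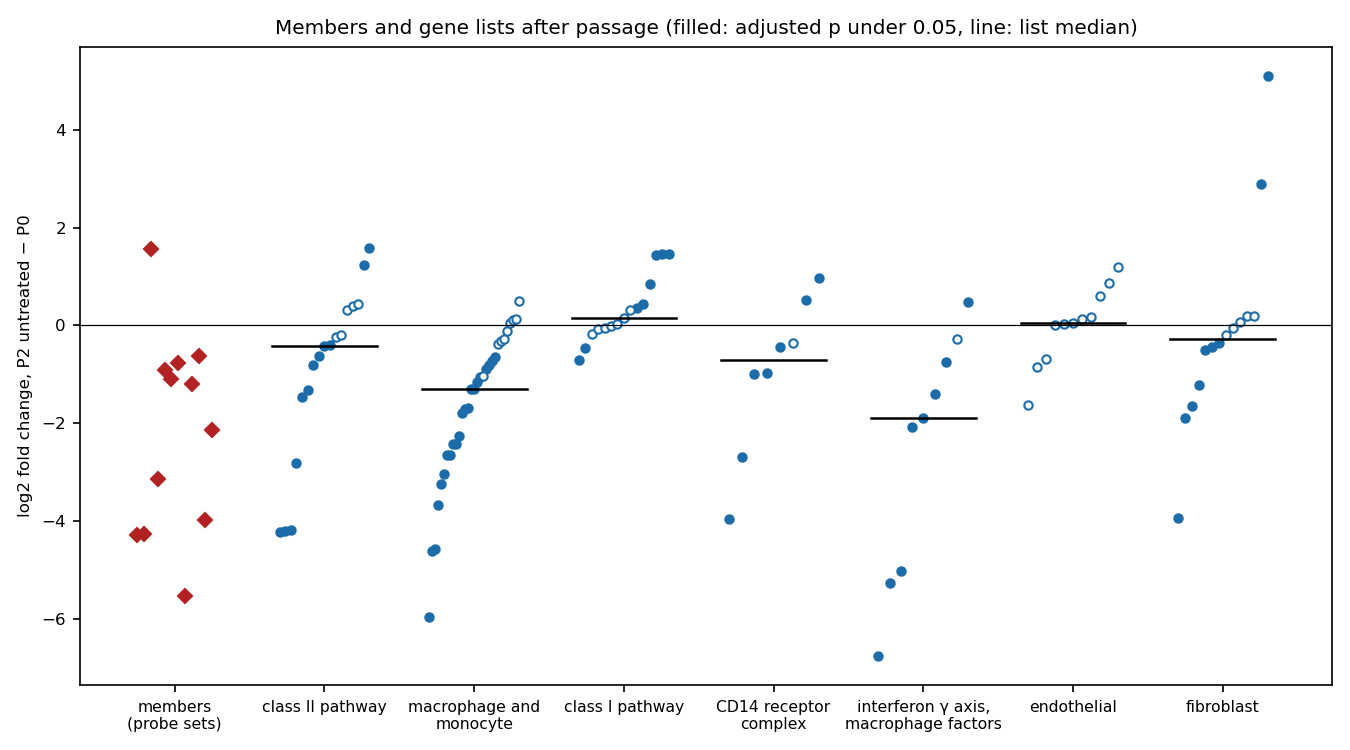
Log2 fold change of untreated P2 against P0 for the 12 member probe sets (diamonds) and for the tested genes of 7 lists (circles, filled where the adjusted p is under 0.05), with list medians as lines. The medians are -0.41 for the class II pathway, -1.29 for macrophage and monocyte markers, 0.15 for class I and 0.05 for endothelial markers.

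Markers of other cells that a valve digest could hold were given for comparison, beside 25.8% lower and 33.6% higher over all tested probe sets. Of 3 tested dendritic cell markers 2 fell, CD83 by 4.66 and CD209 by 2.03. None of 4 tested lymphocyte markers passed in limma (1 at an unadjusted p under 0.05), and 11 of the 13 on the array stayed under the control level on all arrays. The 4 neutrophil markers on the array did so too. None of 11 tested endothelial markers passed in limma for untreated P2 against P0 (0 at an unadjusted p under 0.05, median 0.05), while 6 passed, all higher, without the 3 P2 arrays numbered 3. Of 14 tested fibroblast genes 7 fell and 2 rose, with a median of -0.28. Among those counted as fallen, COL1A2 (-0.44) and FN1 (-0.37) each had 1 other probe set that passed as higher. The calcium-binding protein gene S100A4 rose by 5.10 and the smooth muscle actin ACTA2 by 2.89. The transcription factor TCF21 fell by 3.94, the surface protein THY1 by 1.89, DCN by 1.64 and the matrix protein POSTN by 1.21. The part of any cell type in the members' change was not tested.

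The next comparisons, TGF-β1 for 8 h and 24 h against untreated P2 cells, share the untreated arrays. They ask how already passaged cells responded to the cytokine. The DR chains, C1QC and CD163 showed no change that passed, while CD14 and SLA-DMA Ssc.13777.2.S1_at were lower at 24 h. At 8 h 1 of 12 member probe sets passed, as lower, against 5.07% of all tested probe sets in either direction and 2.53% lower. The groups did not overlap in 2, against 25.5% of all tested probe sets. At 24 h 2 passed, both lower, against 8.49% in either direction and 4.22% lower, and in both of these the groups did not overlap, against 25.3% of all tested probe sets. The members' median log2 fold change was -0.03 at 8 h and -0.23 at 24 h.

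CD14 was the member lower at both times. Ssc.4978.1.S1_at read 6.83, 6.68 and 6.49 at 8 h and 6.52, 6.52 and 6.55 at 24 h, all below the untreated values of 7.45, 7.22 and 7.10. The change was -0.59 ± 0.154 at 8 h (adjusted p = 0.0485) and -0.73 ± 0.154 at 24 h (adjusted p = 0.0128). The 8 h call did not survive leaving out any single one of the 6 arrays (adjusted p from 0.0771 to 0.170), and at 24 h CD14 missed the threshold once untreated replicate 1 was left out (adjusted p = 0.0561). Its second probe set, near the control level, changed by 0.21 at 8 h and -0.03 at 24 h and did not pass. Of its receptor partners TLR2 (-0.52, adjusted p = 0.0296) and LY96 (-0.56, adjusted p = 0.0241) fell at 24 h.

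SLA-DMA Ssc.13777.2.S1_at, the probe set that rose with passage, read 9.38, 9.06 and 9.14 at 8 h and 8.90, 8.70 and 8.75 at 24 h, against 9.97, 9.43 and 9.66 untreated. The 24 h arrays lay below all untreated arrays, with a change of -0.90 ± 0.167 (adjusted p = 0.00682). At 8 h the change of -0.49 ± 0.167 did not pass (adjusted p = 0.135). Without the 3 P2 arrays numbered 3 the 24 h change was -0.90 (adjusted p = 0.0649). Ssc.13777.1.S1_at read 5.26, 5.46 and 4.58 at 24 h and did not pass (-0.37 ± 0.310, adjusted p = 0.543). With array number as a block on the P2 arrays its confidence interval ran from -0.64 to -0.10. It did not pass in limma with the block either (adjusted p = 0.0647). Each of these arrays lay below the untreated array of the same number, with differences of -0.35, -0.45 and -0.32.

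The DR chains did not pass at either time. SLA-DRA read 7.24, 7.80 and 6.27 at 8 h and 7.28, 7.52 and 6.42 at 24 h, and its 24 h change of -0.10 ± 0.428 had a 95% interval from -1.03 to 0.84. SLA-DRB1 read 7.84, 8.19 and 6.33 at 8 h and 7.63, 7.99 and 6.70 at 24 h, and its change of -0.01 ± 0.607 had an interval from -1.33 to 1.32. Those intervals leave array number out of the fit. With number as a block on the P2 arrays the 24 h interval ran from -0.34 to 0.15 for SLA-DRA (SE 0.104) and from -0.44 to 0.43 for SLA-DRB1 (SE 0.186). The SLA-DRB1 difference between 24 h and untreated cells was -0.21 for number 1, -0.45 for number 2 and 0.63 for number 3, so the numbers did not share a direction.

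At 8 h C1QC, AIF1, CD163, CTSS and SLA-DMA Ssc.13777.1.S1_at did not pass. C1QC read 7.89, 8.71 and 8.07 and changed by -0.17 ± 0.235, with a 95% interval from -0.68 to 0.35. AIF1 read 6.69, 7.19 and 6.67 and changed by -0.01 ± 0.197, with an interval from -0.44 to 0.42. With the block these intervals ran from -0.42 to 0.09 and from -0.20 to 0.19. CD163 read 4.66, 4.99 and 5.68 and changed by -0.30 ± 0.478. Its 8 h and untreated arrays overlapped, as did those of C1QC and AIF1. SLA-DMA Ssc.13777.1.S1_at read 5.51, 6.12 and 5.32 and changed by 0.18 ± 0.310. The 3 CTSS probe sets changed by -0.05 to 0.33. For CTSS Ssc.17203.2.S1_at the interval with the block ran from 0.12 to 0.54, and it did not pass in limma (adjusted p = 0.0545).

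At 24 h C1QC changed by -0.32 ± 0.235 (adjusted p = 0.475) with values of 7.96, 8.27 and 7.98. Its interval with the block ran from -0.57 to -0.07, and it did not pass in limma (adjusted p = 0.0785). Each C1QC array lay below the untreated array of the same number, with differences of -0.25, -0.49 and -0.22. CD163 read 3.94, 5.00 and 5.93 at 24 h, from under the control level to above it, and changed by -0.45 ± 0.478 (adjusted p = 0.646). Its interval with the block ran from -0.84 to -0.06, and again CD163 did not pass in limma (adjusted p = 0.103). The 3 CTSS probe sets changed by -0.14 to 0.23 and none passed, with Ssc.17203.3.S1_at at 9.58, 9.96 and 9.54. For CTSS Ssc.17203.2.S1_at the interval with the block ran from 0.02 to 0.44, and it did not pass in limma (adjusted p = 0.120).

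Set in order over the 4 groups, SLA-DRA kept 5.15%, 4.91% and 4.81% of its P0 level in untreated, 8 h and 24 h cells, and no step between the P2 groups passed. CD163 kept 2.14%, 1.74% and 1.57%, again with no step that passed. CD14 Ssc.4978.1.S1_at kept 43.7%, 29.0% and 26.4%. Its steps from untreated to 24 h and, narrowly, to 8 h (limma adjusted p = 0.0485) passed, and that from 8 h to 24 h did not (adjusted p = 0.880). SLA-DMA Ssc.13777.2.S1_at stood at 294%, 210% and 157% of its P0 level. Without the replicate block only its step from untreated to 24 h passed, and with the block that to 8 h passed as well.

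P2 arrays with the same number were linked (processing notes), and a fit with that number as a block changed these counts. With the block on the P2 arrays 2 member probe sets passed at 8 h, CD14 Ssc.4978.1.S1_at (adjusted p = 0.0105) and SLA-DMA Ssc.13777.2.S1_at (adjusted p = 0.0142), against 12.5% of all tested probe sets. At 24 h 3 passed, against 20.0%. The third was AIF1, which read 6.29, 6.75 and 6.43 against 6.75, 7.10 and 6.71 untreated, a change of -0.37 (adjusted p = 0.0218 with the block, 0.309 without it). Each of its 3 arrays lay below the untreated array of the same number.

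Outside the members the block moved the lists further. Of all tested probe sets 4.22% fell at 24 h without the block, and 1796 of 17638 fell with it. Of the 17 class II pathway genes 4 fell at 24 h without the block, IFI30 (-0.85 ± 0.167), CTSH (-0.66 ± 0.181), CTSZ (-0.58 ± 0.125) and CST3 (-0.39 ± 0.109), and none rose. With the block 8 fell, now with CTSD, LGMN, CTSB and SLA-DMB. Of the 31 macrophage markers 1 fell without the block, FOLR2, a folate receptor (-0.82 ± 0.185), and CD40, a costimulatory receptor, rose (0.90 ± 0.202). With the block 11 fell and CD40 rose. Those that fell included the Fc receptors FCGR3A (-1.13) and FCGR2B (-0.91) and the mannose receptor MRC1 (-0.83). Without the 3 P2 arrays numbered 3 and without the block, 0 genes of either list fell in limma (4 of each were lower at an unadjusted p under 0.05). In the class I list 5 genes fell at 24 h without the block, among them PSMB10 (-1.24 ± 0.110) and PSME2 (-1.04 ± 0.175). At 8 h with the block 2 class II pathway genes and 6 macrophage markers fell, and CD40 rose. In that fit 1194 of 17638 tested probe sets fell and 1006 rose. Without the block CD40 rose at 8 h, and 0 genes of the class II pathway and macrophage lists fell.

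Between 24 h and 8 h of TGF-β1 no member probe set passed in limma without the block (lowest adjusted p = 0.474), against 0.232% of all tested. At an unadjusted p under 0.05 limma gave 1 of 12, SLA-DMA Ssc.13777.2.S1_at, with a change of -0.41 ± 0.167. With the block none passed in limma either (lowest adjusted p = 0.0594), against 2.44% of all tested. Intervals with the block lay under 0 for SLA-DMA Ssc.13777.1.S1_at (-0.82 to -0.28), SLA-DMA Ssc.13777.2.S1_at (-0.62 to -0.21) and AIF1 (-0.55 to -0.16). Those of the other members spanned 0. In that fit 3 macrophage markers and 2 class II pathway genes fell, and 0 of either list rose.

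Replicate number separated the P2 arrays in most members. An F test of number over the 9 P2 arrays, with group as a term, was added after the values had been seen. It passed for 9 of the 12 member probe sets, against 12.3% of all tested. In 8 of the 9 the arrays numbered 3 were lower than the mean of numbers 1 and 2. The F test takes any difference between numbers, and number 3 was not always the lowest. It was lowest in 1 of the 3 P2 groups for C1QC and CTSS Ssc.17203.1.A1_at, and in 2 for AIF1. The difference was -1.62 for SLA-DRB1 (adjusted p = 0.00257), -1.12 for SLA-DRA (adjusted p = 0.000974) and -0.71 for SLA-DMA Ssc.13777.1.S1_at (adjusted p = 0.00850). CD163 ran the other way, with number 3 higher by 1.16 (adjusted p = 0.00460). The 2 CD14 probe sets (adjusted p = 0.291 and 0.712) and SLA-DMA Ssc.13777.2.S1_at (adjusted p = 0.0764) did not pass. Leaving out a whole group left fewer calls, 4 without untreated arrays, 2 without the 8 h arrays and 6 without the 24 h arrays, when 3.61%, 1.21% and 3.60% of all tested probe sets passed.

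**Figure D5:**
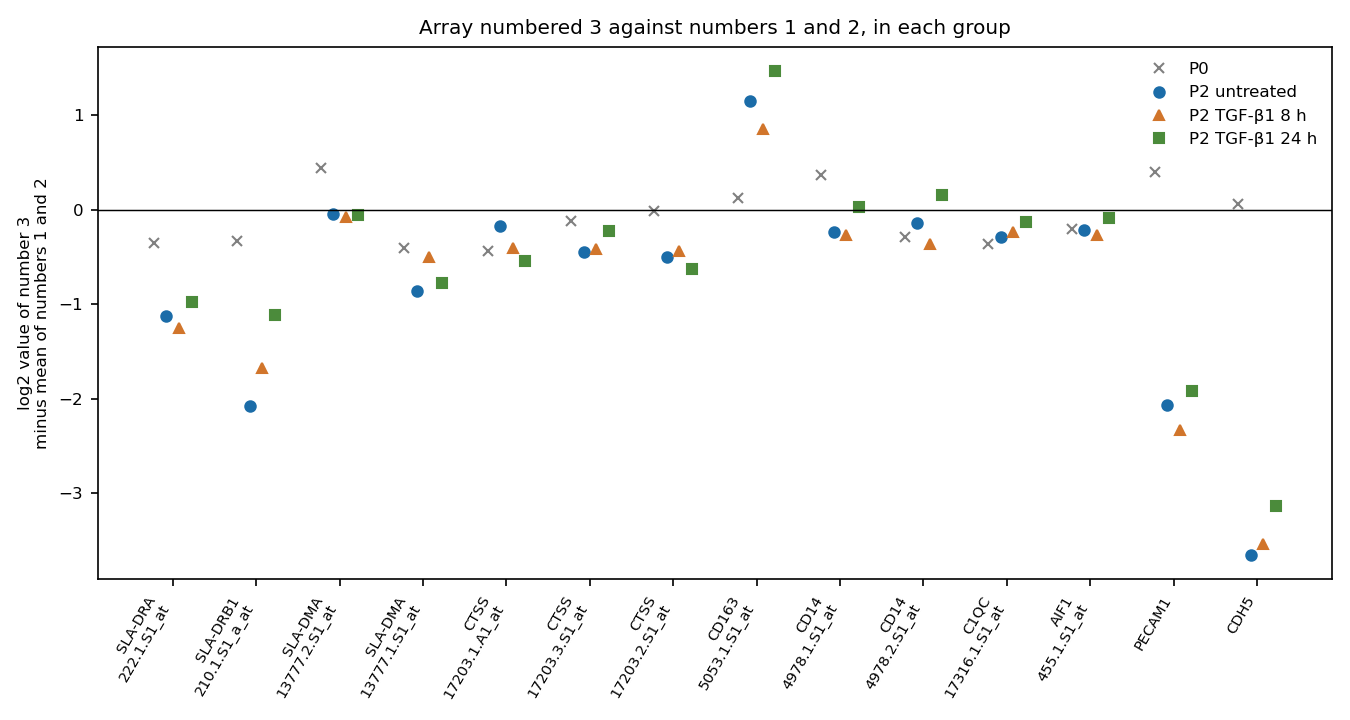
Log2 value of the array numbered 3 minus the mean of numbers 1 and 2, in each group, for the 12 member probe sets and for the endothelial genes PECAM1 and CDH5. Over the P2 arrays SLA-DRA and SLA-DRB1 are lower in number 3 (-1.12 and -1.62) together with PECAM1 and CDH5 (-2.10 and -3.44), CD163 is higher (1.16), and the P0 differences (crosses) are smaller for these genes.

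Array number 2 read highest in all 4 groups, P0 included, for 8 of the 12 member probe sets: SLA-DRA, SLA-DRB1, SLA-DMA Ssc.13777.1.S1_at, the 3 of CTSS, C1QC and AIF1. Of all tested probe sets 2.97% did so. Over all tested probe sets, same-number P0 and P2 arrays correlated at -0.0916 to 0.0158 (processing notes), and the labels state no shared source. Whether the match across P0 and P2 in these members comes from a shared source was not tested. In P0 array number 2 exceeded the mean of numbers 1 and 3 by 0.58 for SLA-DRA and by 0.87 for SLA-DRB1.

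Endothelial markers moved with array number 3 as well. Of 11 tested 9 passed the F test, all with number 3 lower than the mean of numbers 1 and 2. For ESAM number 3 was the lowest in only 1 of the 3 P2 groups. CDH5, the endothelial cadherin, read 9.96, 10.79 and 6.72 on the untreated P2 arrays, with a difference of -3.44 over the P2 arrays, and PECAM1 differed by -2.10. The summed log2 level of the 12 endothelial markers on the array ran from 67.9 to 90.6 on the untreated P2 arrays and from 80.4 to 83.0 in P0. Of 31 macrophage markers 17 passed, 15 of them with number 3 lower than the mean of numbers 1 and 2. Number 3 was the lowest in 0 of the 3 P2 groups for C1QA, GPNMB and FOLR2, and in 1 for FCER1G and ITGB2. Of 17 class II pathway genes 6 passed, all lower in number 3 than that mean. None of 8 genes of the CD14 receptor complex passed in limma (1 at an unadjusted p under 0.05). Which cells carried the class II transcripts of the P2 arrays was not tested. Without the 3 P2 arrays numbered 3 the change with passage was -3.90 for SLA-DRA, -3.58 for SLA-DRB1 and -5.93 for CD163, and 10 of 12 member probe sets passed.

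The genes whose profiles lay nearest to each member were found by the root mean square difference of mean-centred log2 values, over 6006 genes. For SLA-DRA over the 12 arrays these were SLA-DQB1 (0.123), SLA-DQA1 (0.197) and LOC106504372 (0.220), against a spread of 1.94 for SLA-DRA itself. For SLA-DMA Ssc.13777.1.S1_at they were TYROBP (0.206), SLA-DMB (0.221) and FCGR2B (0.283). For the other SLA-DMA probe set they were PSME1 (0.145), HADHB (0.155) and NT5C2 (0.174). The 2 SLA-DMA probe sets thus shared none of their 3 nearest genes.

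For C1QC the nearest were CD74 (0.259), FAM46C (0.264) and RASGEF1B (0.279), for AIF1 they were GMFG (0.193), LFNG (0.234) and DEPDC7 (0.236), and for CD163 the complement genes C3 (0.430) and C4A (0.483) and the chemokine CCL24 (0.552). Over the 9 P2 arrays alone, where passage plays no part, C1QA was nearest to both C1QC (0.134) and AIF1 (0.129). The members' own spreads on those arrays were small, 0.298 for C1QC and 0.267 for AIF1. Almost as near were ITGB2 to C1QC (0.135) and MMP9 to AIF1 (0.130). For SLA-DRB1 on those arrays the nearest were LAPTM5 (0.188), PROCR (0.222) and ICAM2 (0.255), and for SLA-DRA they were FKBP5 (0.0841), SLA-DQB1 (0.122) and LOC106504372 (0.136). For CD14 Ssc.4978.1.S1_at over the 12 arrays they were GNG11 (0.195), LOC100522887 (0.200) and GATA2 (0.210), and for CTSS Ssc.17203.1.A1_at they were FABP5 (0.229), AMBN (0.237) and the integrin ITGB2 (0.267).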

How the data were processed

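The deposited table gives log2 expression for each probe set on each array. It was made with GCRMA, per the submitters' processing notes, which give no version or settings. Its array medians ran from 5.87 to 5.94, and nothing was rescaled. Precision is limited by the few arrays per group (median SE 0.159).

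Group means were fitted with limma 3.58.1 in R 4.3.3 (lmFit, eBayes) on 12 arrays, two-sided, Benjamini-Hochberg over 17638 probe sets. Where a group mean lay under the control level, the fold runs from that level ("at least"). Listed genes were read on their single-symbol probe set of highest mean. Every member probe set and class II pathway gene was named, and up to 6 called genes per other list by size of change; further listed genes were named after their values were seen. Members and lists were chosen with earlier results of these data known. Symbols come from the platform annotation, updated by RefSeq gene ID (9961 of 10069 matched).

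After group means were removed, same-number P2 arrays correlated at 0.348 to 0.679 (9 pairs), other P2 pairs at most 0.0796, P0 with same-number P2 arrays -0.0916 to 0.0158. The numbers were therefore taken to pair the P2 arrays, not P0. The labels do not state a pairing. The fit was tested on simulated data. Alternatives tried were filters, normalization, variance trend, block, a floor at the control level, left-out arrays and averaged probe sets.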

Additional observations from a re-analysis of the deposited data

Results flagged for a closer look

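Of the 3 probe sets left out of the members because they carry SLA-DRB1 together with LOC106504372, 2 had group means above the reporter controls' 95th percentile of 4.58. The third, Ssc.210.7.A1_x_at, had group means of 2.37 to 2.57. Ssc.210.6.S1_x_at averaged 6.79 in P0, 5.01 in untreated P2 cells, 5.16 at 8 h and 4.94 at 24 h of TGF-β1. Ssc.210.7.S1_x_at averaged 10.40 in P0 and 5.85 at 24 h. In Affymetrix naming the suffix x marks probes that also match other sequences, so these probe sets cannot be assigned to 1 DR β locus.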

How the results depend on the processing

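Of 752 single values recomputed under the alternatives, 724 kept their direction and side of the threshold, 21 lost the call, 7 gained it and 0 reversed; 55 others, which passed under neither setting, changed sign. The P2 untreated against P0 count stayed between 8 and 12 under all alternatives (10 to 12 with 1 array left out; 8 of 8 genes with a gene's probe sets averaged, a count that takes SLA-DMA as lower although its 2 probe sets moved in opposite directions), and 12 with the replicate block on all 12 arrays. P0 arrays were not taken to share the pairing, so that block fit is given here only.

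At 8 h the count of 1 became 0 with no filter, with median centring, with the replicate block on all 12 arrays, in a fit of the 2 groups alone, with values raised to the control level, without the 3 P2 arrays numbered 3 and with probe sets averaged, and 2 with the block on P2 arrays. With 1 array left out it ranged from 0 to 0. At 24 h the count of 2 became 1 without the 3 P2 arrays numbered 3 and 1 with probe sets averaged, and ranged from 1 to 2 with 1 array left out. Against 8 h, 24 h gave 0 throughout. The count of 9 by replicate number ranged from 6 to 9 with 1 array left out, and was 4 without the untreated and 2 without the 8 h group. The cause of these shifts was not tested. Probe sets near the control level, CD14 Ssc.4978.2.S1_at and the P2 values of CD163, limit what small changes can be read.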
